A study of Mus musculus with 2 samples.

Results

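The 10 genes described here belong to the ATF4 and unfolded protein response and were chosen by name, out of 31053 genes in each count table. Atf4, Ddit3, Asns, Trib3, Chac1 and Sesn2 form the ATF4 arm, 6 genes. Hspa5, Xbp1, Pdia4 and Herpud1 form the ER chaperone arm, 4 genes. The cells were mouse acute myeloid leukemia progenitors, called I1DN in the labels and sorted as positive for cKit and negative for Cd11b. The labels do not spell out I1DN, the alleles behind it, or the strain, sex and age of the mice. Mice had received a vehicle or AG-120 (ivosidenib, an inhibitor of mutant IDH1) for 5 days, and all cells of both groups carry the I1DN label. Each treatment gave 1 droplet library of single cells, and how many mice went into it is not stated. With 1 library per group no difference between the treatments has a replicate check, so no test between them was made. Intervals are 95% intervals that cover counting error only.

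ATF4 is a transcription factor whose messenger RNA is present at all times and is translated more when the initiation factor eIF2 is phosphorylated. Separate kinases phosphorylate eIF2 on ER stress (PERK, gene Eif2ak3), amino acid shortage (GCN2, Eif2ak4), heme shortage or mitochondrial stress (HRI, Eif2ak1) and double-stranded RNA (PKR, Eif2ak2). ATF4 then switches on amino acid synthesis and transport genes, tRNA synthetases and regulators such as CHOP. The other branches of the unfolded protein response, IRE1 with XBP1 and the cleaved factor ATF6, switch on chaperones and degradation factors of the endoplasmic reticulum. In red cell precursors, HRI couples globin translation to the supply of heme. Gene-level counts read neither the translation of ATF4 nor the splicing of Xbp1, which are the regulated steps of these factors.

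Promoter windows of 250 bases before the gene start were read for all 10 genes from the RefSeq table of build GRCm38.p6. The windows of 4 genes are printed because they carry the letters of elements known for each arm. Searched on both strands were the C/EBP-ATF element bound by ATF4 (TGATGNAA), the ER stress response element (CCAAT and CCACG with 9 free bases between them) and its second form (ATTGG and CCACG with 1 free base between them). Capitals mark the matches, and each sequence runs 5′ to 3′ on the strand of its gene.

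Asns (chr6:7693210-7693459, minus strand): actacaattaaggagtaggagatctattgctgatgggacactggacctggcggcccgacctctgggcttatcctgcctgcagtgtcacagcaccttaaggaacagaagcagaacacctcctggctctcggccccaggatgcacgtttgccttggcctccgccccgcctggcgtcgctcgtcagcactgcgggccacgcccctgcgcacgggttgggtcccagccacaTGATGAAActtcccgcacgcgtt

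Chac1 (chr2:119350992-119351241, plus strand): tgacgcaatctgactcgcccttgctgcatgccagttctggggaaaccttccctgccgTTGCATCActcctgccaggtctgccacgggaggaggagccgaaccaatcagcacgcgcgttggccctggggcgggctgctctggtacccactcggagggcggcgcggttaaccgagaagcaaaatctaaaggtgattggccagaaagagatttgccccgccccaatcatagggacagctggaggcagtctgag

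Hspa5 (chr2:34771840-34772089, plus strand): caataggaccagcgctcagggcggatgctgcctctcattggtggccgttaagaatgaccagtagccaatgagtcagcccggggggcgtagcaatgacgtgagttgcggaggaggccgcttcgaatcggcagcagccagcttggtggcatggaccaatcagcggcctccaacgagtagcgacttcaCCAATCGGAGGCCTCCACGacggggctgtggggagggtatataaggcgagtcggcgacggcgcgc

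Herpud1 (chr8:94386179-94386428, plus strand): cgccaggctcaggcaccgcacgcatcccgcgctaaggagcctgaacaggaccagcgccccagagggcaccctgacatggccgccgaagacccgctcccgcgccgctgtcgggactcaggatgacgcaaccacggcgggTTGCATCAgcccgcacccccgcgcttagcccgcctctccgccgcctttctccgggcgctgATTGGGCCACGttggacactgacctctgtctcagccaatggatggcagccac

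The C/EBP-ATF element was found in 3 of the 10 windows. Its match begins 23 bases before the start of Asns, 193 bases before the start of Chac1 and 112 bases before the start of Herpud1, counting from the start backwards. In Chac1 and Herpud1 it lies on the opposite strand, so the capitals show its reverse complement. The ER stress response element was found in the window of Hspa5, 65 bases before the start, and its second form in that of Herpud1, 52 bases before the start. No 2 of these matches overlap. Starts are those of RefSeq. In GENCODE the genes Asns and Hspa5 begin farther upstream, so their matches lie inside the first bases of those gene models. Herpud1, of the ER chaperone arm by the choice of members, is the gene whose window holds letters of both kinds. The other 6 windows hold none of the 3 sets of letters. Over 32851 RefSeq windows of the same length, the C/EBP-ATF element was found in 3.45%, the ER stress response element in 0.113% and its second form in 0.0304%. A match describes letters and was not measured as a bound site.

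The libraries differed in depth and in cell content. After removal of cells with under 500 detected genes or over 10% mitochondrial UMIs, 3914 vehicle cells with 56240310 UMIs and 3756 AG-120 cells with 96084632 UMIs remained. The median cell held 13156.5 UMIs in vehicle and 25681.5 UMIs in AG-120. Clustering without the 10 genes and their pathway lists gave 14 clusters, of which erythroid-like clusters held 35 vehicle cells and 3282 AG-120 cells. Megakaryocyte-like clusters held 1110 vehicle cells and 40 AG-120 cells. Levels are UMIs scaled to the total of their library or cell group (CPM). A gene was called higher or lower where its CPM differed by at least 1.2-fold and it had 500 UMIs over both libraries, which 9419 genes had. Between the libraries 28.8% of these were called higher in AG-120 and 42.2% lower, with a median log2 ratio of -0.12, so a call alone says little about a gene. The barcodes shared by both libraries numbered 20, and 17 of them were kept in both.

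Between the whole libraries, the ATF4 arm was split, and the ER chaperone genes had ratios below 1. Of the ATF4 arm, 3 rare target genes (Asns, Trib3 and Chac1) stood at 7.11 to 15.5 times their vehicle level in AG-120, while Atf4 and Ddit3 were each within 1.2-fold. In the ER chaperone arm all 4 genes had a lower CPM in AG-120, by 1.18-fold to 1.80-fold. Of these, 3 were called lower, and Hspa5 was within 1.2-fold. The median log2 ratio was 1.54 over the 6 genes of the ATF4 arm, but 0.22 over the 3 of them with 500 UMIs, and -0.56 over the ER chaperone arm. Among the 7 members with 500 UMIs, 0 were called higher and 4 lower (3 ER chaperone genes and Sesn2), beside backgrounds of 28.8% and 42.2%. These numbers compare 2 libraries of different cell makeup.

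Atf4 (chr15:80255184-80257541), the transcription factor itself, had 74.1 CPM in vehicle and 86.3 CPM in AG-120, 1.16-fold higher (interval 1.12 to 1.21). Ddit3 (chr10:127290774-127296288) encodes CHOP, a pro-apoptotic factor of prolonged stress. It had 16.0 CPM in vehicle and 19.0 CPM in AG-120, 1.18-fold higher (interval 1.09 to 1.28). Neither reached the 1.2-fold call. Both did when the median gene was set to 0, under which 35.5% of genes were called higher and 35.7% lower. At equal depth, 6500 UMIs drawn from each cell, Atf4 was detected in 37.5% of the cells in vehicle and 40.5% in AG-120. The Ddit3 shares were 9.85% and 11.7%. Cells under that depth, 361 in vehicle and 131 in AG-120, were left out of the equal-depth shares, and no cell type here is known to lack these genes, so the share given by free RNA was not measured.

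The 3 rare targets had too few UMIs for a call. Asns (chr6:7675169-7693254), asparagine synthetase, had 5 UMIs in vehicle (0.0889 CPM) and 132 UMIs in AG-120 (1.37 CPM), a 15.5-fold ratio (interval 6.46 to 48.4). Trib3 (chr2:152337422-152344032), a pseudokinase that feeds back on ATF4, had 10 UMIs (0.178 CPM) and 171 UMIs (1.78 CPM), a 10.0-fold ratio (interval 5.31 to 21.2). Chac1 (chr2:119351229-119354381), an enzyme that breaks down glutathione, had 7 UMIs (0.124 CPM) and 85 UMIs (0.885 CPM), a 7.11-fold ratio (interval 3.30 to 18.2). All 3 intervals lie above 1, and their width comes from the few vehicle UMIs. With every deposited barcode counted, the Asns log2 ratio was 2.39 in place of 3.95, whereas those of Trib3 and Chac1 stayed at 3.34 and 2.85. At equal depth a UMI was seen in 0.0563% of vehicle and 0.607% of AG-120 cells for Asns, 0.113% and 0.993% for Trib3, and 0.0844% and 0.579% for Chac1. Without thinning, the AG-120 cells with a UMI were 61 for Asns, 96 for Trib3 and 61 for Chac1, beside 5, 9 and 6 vehicle cells.

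Sesn2 (chr4:132492032-132510501) encodes a stress-induced leucine sensor upstream of mTORC1 and is also a p53 target. It went the other way, with 7.93 CPM in vehicle and 5.23 CPM in AG-120, 1.51-fold lower (interval 1.33 to 1.72). The ATF4 arm was thus split into 3 rare genes that were higher, 2 genes near their vehicle level and 1 that was lower.

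In the ER chaperone arm, Hspa5 (chr2:34771970-34777547) encodes BiP, the main chaperone of the ER lumen. It had 345 CPM in vehicle and 292 CPM in AG-120, 1.18-fold lower (interval 1.160 to 1.203). Xbp1 (chr11:5520659-5525893), whose messenger RNA is spliced by IRE1 into that of a transcription factor, had 106 CPM and 58.7 CPM, 1.80-fold lower (interval 1.74 to 1.87). Pdia4 (chr6:47796141-47813430), a protein disulfide isomerase, had 105 CPM and 59.1 CPM, 1.78-fold lower (interval 1.71 to 1.84). Herpud1 (chr8:94386438-94395377), a membrane protein of ER-associated degradation, had 61.0 CPM and 49.7 CPM, 1.23-fold lower (interval 1.17 to 1.28). Xbp1 and Pdia4 were the pair that stood apart from the vehicle level, at percentiles 19.2 and 19.7 of all measured genes, whereas Hspa5 and Herpud1 stood at 43.5 and 40.4. At equal depth the share of cells with an Xbp1 UMI was 46.2% in vehicle and 30.7% in AG-120, and with a Pdia4 UMI 47.7% and 30.3%. The Hspa5 shares were 78.1% and 78.2%. Summed over the arm, the level was 617 CPM in vehicle and 460 CPM in AG-120. When AG-120 cells were weighted to the vehicle makeup of cell groups, the median log2 ratio of the arm was 0.22 in place of -0.56, but 63.0% of that weight fell on 22 AG-120 cells.

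**Figure D1:**
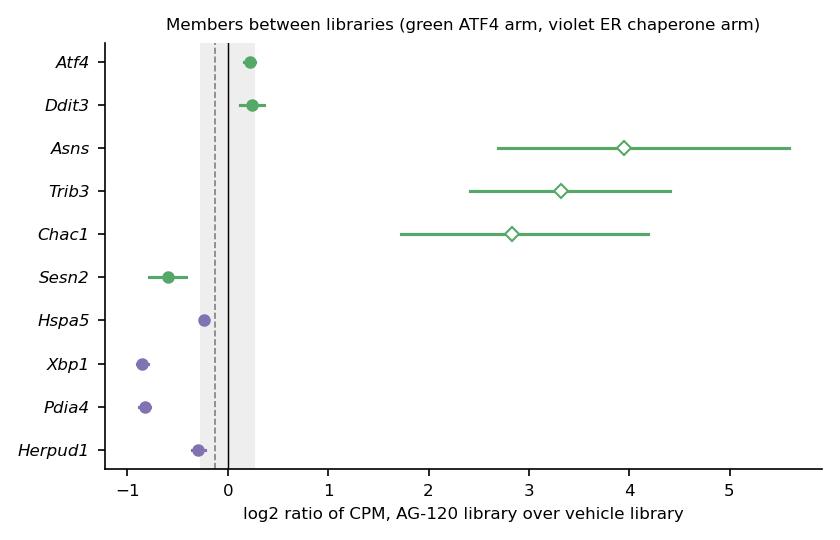
Log2 ratio of CPM, AG-120 library over vehicle library, for the 10 genes; bars are 95% counting intervals, the grey band is within 1.2-fold, the dashed line is the median of all measured genes and open diamonds are genes under 500 UMIs. Asns, Trib3 and Chac1 lie at 3.95, 3.32 and 2.83, and the 4 ER chaperone genes lie at or below -0.24.

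Other genes of the pathway were read as lists. The members and lists were both chosen with earlier results known, so the counts describe and do not test. ATF4 targets, eIF2 genes and mitochondrial chaperones were mostly higher in AG-120, while the medians of ER folding and degradation genes lay near that of all genes. With AG-120 cells weighted to the vehicle makeup of cell groups, fewer were called higher. The numbers fell from 21 to 14 for ATF4 targets, from 12 to 7 for the sensor and eIF2 list and from 6 to 4 for the mitochondrial list. The share of all genes called higher under that weighting was not computed. Of 44 listed ATF4 targets, 32 were measured, 21 called higher and 6 lower, beside 28.8% and 42.2% of all genes. Their median log2 ratio was 0.44, beside -0.12 over all genes. At 1.5-fold, 12 of the 32 were called higher, beside 15.6% of all genes, and 27.5% of all genes were called lower.

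Within the ATF4 target list the 3 highest were Cth, which makes cysteine from cystathionine, at 2.05, Eif4ebp1, a translation inhibitor, at 1.52, and Aldh18a1, an enzyme of proline synthesis, at 1.30. Cth rests on 64 vehicle UMIs. The 3 lowest were Ndrg1, a stress and hypoxia gene, at -2.16, Cdkn1a, the cell cycle inhibitor p21, at -1.81, and the amino acid transporter Slc38a2 at -1.01. All 10 aminoacyl-tRNA synthetases of the list, which load amino acids on tRNAs, had positive log2 ratios, from 0.20 for Iars to 1.12 for Gars. Of these, 8 were called higher, beside 28.8% of all genes. As background, Cdkn1a is also a p53 target and Ndrg1 a hypoxia gene.

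Of 24 ER folding genes, all measured, 3 were called higher and 8 lower, beside 28.8% and 42.2% of all genes, with a median of -0.12, the same as over all genes. The highest was Fkbp11, a peptidyl-prolyl isomerase of the secretory pathway, with 3.68 CPM in vehicle and 42.2 CPM in AG-120, a log2 ratio of 3.52. Canx, the lectin chaperone calnexin, and Fkbp2 followed at 0.55 and 0.44. The 3 lowest were the BiP cochaperone Dnajb9 at -1.20, the oxidase Ero1lb at -1.14 and the reductase Dnajc10 at -0.79. Fkbp11 stood far above the rest of its list, none of which passed 0.55.

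Of 21 measured genes of ER-associated degradation, 4 were called higher and 7 lower, beside 28.8% and 42.2% of all genes, with a median of -0.19. Derl1, a channel component, was at 0.52 and the ubiquitin ligase Syvn1 at 0.29, and the lowest were the shuttle factor Ubqln2 at -1.14, Selenok at -0.94 and the lectin Erlec1 at -0.89. Of 22 genes for entry into the ER, 6 were called higher and 4 lower, beside the same background, with a median of -0.03. Srp19 at 0.62, Ssr2 at 0.55 and Spcs1 at 0.51 were highest, and Sec62 at -0.99, Tram1 at -0.96 and Ssr3 at -0.47 lowest.

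Of 21 genes of the sensor and eIF2 list, 12 were called higher and 9 lower, beside 28.8% and 42.2% of all genes, with a median of 0.39. All 5 eIF2B subunits, the exchange factor that phosphorylated eIF2 blocks, and all 3 eIF2 subunits were called higher, led by Eif2b1 at 1.11, Eif2b3 at 0.88 and Eif2s1 at 0.81. Of the 4 eIF2 kinases, Eif2ak1 (HRI) and Eif2ak2 (PKR) were higher at 0.39 and 0.51, whereas Eif2ak3 (PERK) and Eif2ak4 (GCN2) were lower at -0.59 and -0.70. The ER sensors Ern1 (IRE1) and Atf6 were lower at -0.996 and -0.68, and the protease Mbtps2, which cleaves ATF6, was the lowest of the list at -1.15. Of 7 mitochondrial stress genes, 6 were called higher and 1 lower, beside the same background, with a median of 0.92. The paired mitochondrial chaperones Hspd1 and Hspe1 were highest at 1.61 and 1.29, followed by the protease subunit Clpp at 0.96. Dele1, which carries mitochondrial stress to HRI and is listed in the files as 0610009O20Rik, was at 0.70, and the protease Oma1 that acts on it was the lower gene, at -0.29.

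**Figure D2:**
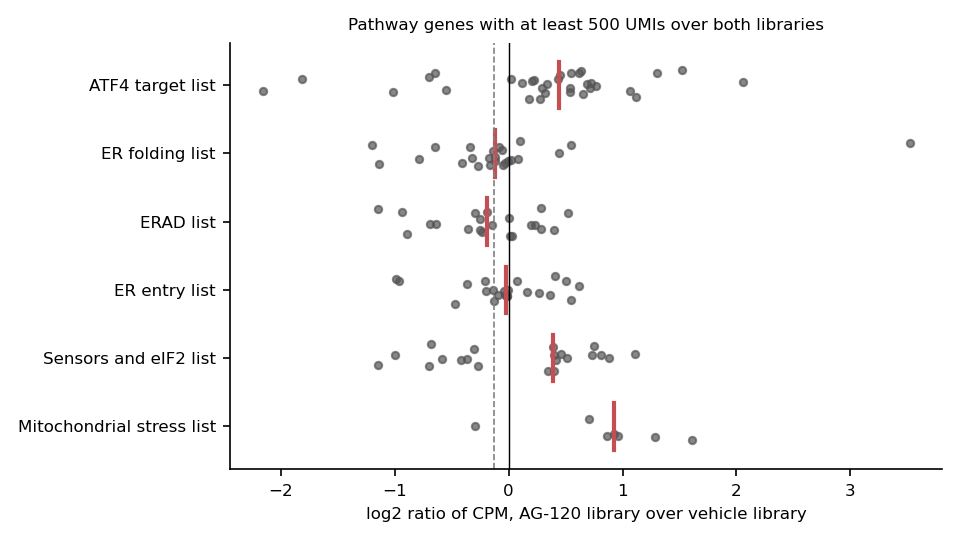
Each point is a measured gene of a pathway list, placed by its log2 ratio of CPM, AG-120 library over vehicle library; red bars are list medians and the dashed line is the median of all measured genes. The ATF4 target, sensor and mitochondrial medians lie at 0.44, 0.39 and 0.92, and the ER list medians between -0.19 and -0.03.

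Cell groups were then compared, since the libraries held different ones. Erythroid-like cells made up 0.894% of vehicle and 87.4% of AG-120 cells, and megakaryocyte-like cells 28.4% and 1.06%. In vehicle, cluster 0 (led by Sox4, Ltb and Tox, 1158 cells), cluster 1 (led by Cd34 and Ltb, 898 cells) and cluster 9 (led by Pclaf, 409 cells) met no marker list well enough for a name, and AG-120 held 7, 8 and 7 cells of them. Cluster 10 (32 and 296 cells) and cluster 11 (270 and 31 cells) shared granulocyte-monocyte progenitor genes such as Elane but stayed unnamed. With both libraries pooled, cluster 10 was led by neutrophil genes and cluster 11 by Prg2 with MHC class II genes. Neutrophil markers were higher in the vehicle cells of cluster 10. Basophil, mast cell and eosinophil markers were higher in the AG-120 cells of cluster 11. A basophil/mast-like cluster held 2 and 85 cells.

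Within AG-120, where every group came from the same library, erythroid-like cells had the lowest levels of the ER chaperone arm. Xbp1 was at 48.6 CPM in erythroid-like cells, 155 in cluster 10, 161 in megakaryocyte-like, 205 in basophil/mast-like cells and 250 in cluster 11. The intervals of the erythroid-like cells (47.11 to 50.04 CPM) and cluster 10 (146 to 165 CPM) did not overlap. The interval of megakaryocyte-like cells (131 to 197 CPM) overlapped both that of cluster 10 and that of basophil/mast-like cells (173 to 241 CPM). The interval of cluster 11 (203 to 305 CPM) overlapped the latter, so the order of these neighbours is uncertain. Hspa5 was at 259 CPM in erythroid-like, 400 in basophil/mast-like, 457 in megakaryocyte-like cells, 668 in cluster 10 and 854 in cluster 11. The order of the middle groups thus differed between these genes, while the lowest and the highest group were shared.

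Against erythroid-like cells of AG-120, all 4 ER chaperone genes were called higher in cluster 10, where 30.2% of genes were called higher and 33.8% lower (100 UMIs over both groups required), with a median log2 difference of 1.52 beside -0.06 over all genes. All 4 were called higher in cluster 11 (background 33.6% higher, 50.2% lower), with a median of 1.84, and in megakaryocyte-like cells (background 37.9% higher, 32.4% lower), with a median of 0.74. In basophil/mast-like cells 3 of the 4 were (background 41.1% higher, 40% lower), with a median of 1.01, and Herpud1 stood at 48.0 CPM beside 47.8 CPM. Pdia4 was at 49.9 CPM in erythroid-like cells, 79.0 in megakaryocyte-like, 131 in basophil/mast-like cells, 162 in cluster 10 and 193 in cluster 11. Of the 4 ER genes Herpud1 varied least, from 47.8 CPM in erythroid-like cells to 68.2 CPM in cluster 10, apart from cluster 11 at 155 CPM, which has 60 UMIs of it in 31 cells.

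In vehicle the erythroid-like cells, 35 of them, were also the low group for Xbp1, Pdia4 and Herpud1, but not for Hspa5. Xbp1 was at 54.2 CPM in them, 90.3 in cluster 9, 96.5 in cluster 1, 96.8 in cluster 0, 115 in cluster 10, 117 in megakaryocyte-like cells and 149 in cluster 11. Pdia4 was at 51.5 CPM in erythroid-like cells and from 66.2 CPM in cluster 10 to 159 CPM in cluster 11 elsewhere. Hspa5 was at 304 CPM in erythroid-like cells, above cluster 0 at 253 CPM and level with cluster 1 at 302 CPM, and reached 577 CPM in cluster 11. Against erythroid-like cells, 3 of the 4 genes were called higher in megakaryocyte-like cells (background 46.4% higher, 25.5% lower), in cluster 0 (44.8% and 34.4%) and in cluster 1 (39.2% and 33.4%). All 4 were in cluster 9 (40.1% and 28.2%) and cluster 11 (30.9% and 42.2%). Hspa5 was the gene called lower in cluster 0, and 0 of the 4 were called lower in the other groups.

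Across these groups Atf4 varied less than the ER genes. In AG-120 it was at 84.7 CPM in erythroid-like cells, 104 CPM in cluster 10 (ratio 1.23, interval 1.14 to 1.33), 121 CPM in cluster 11 (ratio 1.43, interval 1.05 to 1.91) and 120 CPM in megakaryocyte-like cells (ratio 1.42, interval 1.11 to 1.79). Against erythroid-like cells of AG-120, 5 of the ATF4 arm's 6 genes were measured. All 5 were called higher in megakaryocyte-like cells (37.9% of all genes were), 4 higher and 1 lower in cluster 11 (33.6% and 50.2%) and 2 higher and 2 lower in cluster 10 (30.2% and 33.8%). Several of these calls rest on few UMIs. In megakaryocyte-like cells Asns had 1 UMI (1.65 CPM, interval 0.04 to 9.17) and Sesn2 had 8. In cluster 11 Trib3 had 1 UMI, Sesn2 3, Ddit3 5 and Asns 10. Over clusters, Atf4 ranged from 76.8 CPM to 131 CPM over the 10 AG-120 clusters of at least 20 cells and from 61.9 CPM to 86.0 CPM over the 7 vehicle ones, narrower than Xbp1, which ranged from 35.6 CPM to 250 CPM in AG-120. In vehicle, Atf4 was at 97.0 CPM in the pooled erythroid-like cells (each of their clusters held under 20 vehicle cells), and cluster 11, the highest group for the ER genes, had 63.5 CPM. Ddit3 in AG-120 was at 12.1 CPM in cluster 10, 19.0 in erythroid-like, 43.8 in basophil/mast-like and 57.6 in megakaryocyte-like cells. The last of these values rests on 35 UMIs (interval 40.1 to 80.1 CPM) and does not overlap erythroid-like cells (18.1 to 19.9 CPM). Among the vehicle clusters Sesn2 was highest in cluster 0, at 14.4 CPM (interval 12.2 to 16.8), beside 8.19 CPM in megakaryocyte-like cells. Cluster 0, of which AG-120 held 7 cells, gave 35.4% of the vehicle UMIs of Sesn2.

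**Figure D3:**
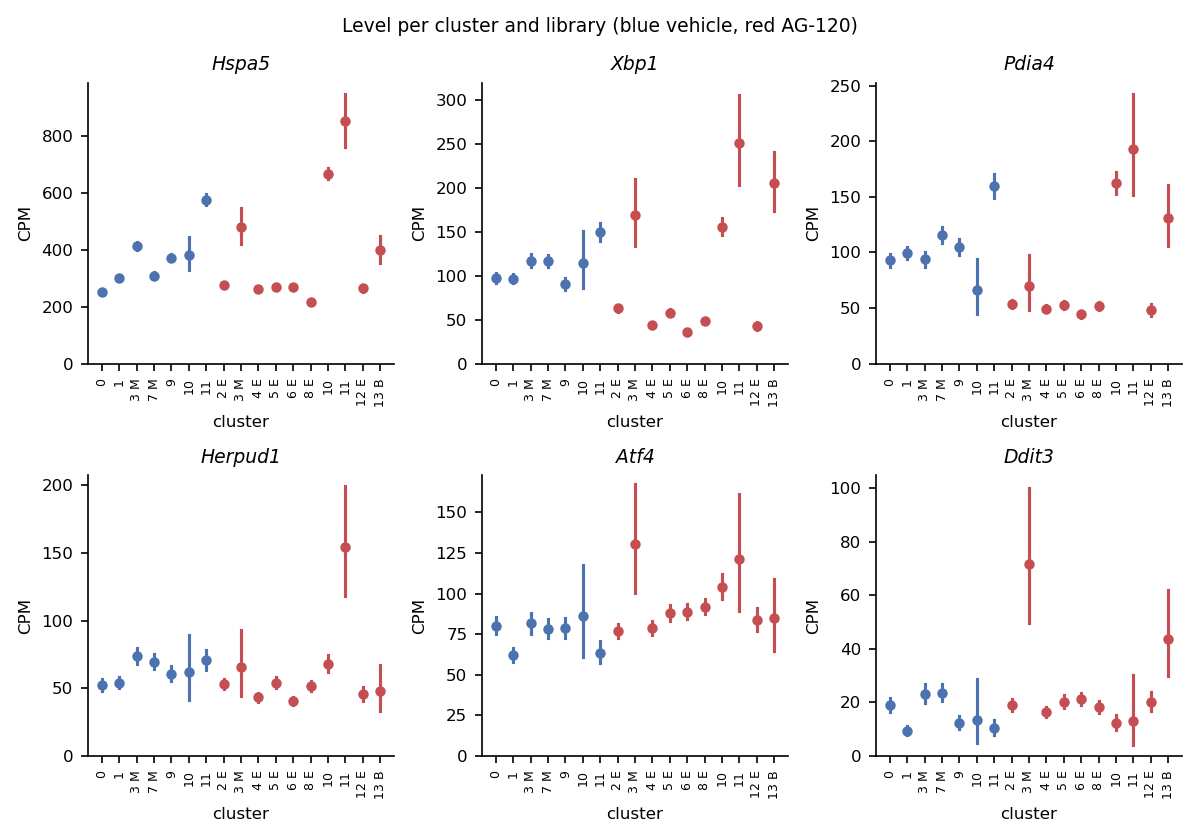
Level in CPM of 6 genes in every cluster with at least 20 cells of a library (blue vehicle, red AG-120); bars are 95% counting intervals and the letters E, M and B mark erythroid-like, megakaryocyte-like and basophil/mast-like clusters. The red E clusters lie lowest for Xbp1 and Pdia4, and Atf4 varies least, from 61.9 CPM to 131 CPM.

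Most UMIs of the rare targets came from erythroid-like cells, the commonest cells of AG-120. They gave 87.1% of the Asns UMIs (54 cells), 81.3% of the Trib3 UMIs (80 cells) and 69.4% of the Chac1 UMIs (40 cells). These cells made up 87.4% of the AG-120 cells and held 87530469 of the 96084632 UMIs of that library. As CPM the levels were highest elsewhere. Asns was at 1.31 CPM in erythroid-like cells and 25.8 CPM in cluster 11, from 10 UMIs in 3 cells. Trib3 was at 1.59 CPM in erythroid-like and 31.3 CPM in megakaryocyte-like cells, from 19 UMIs in 5 cells. Chac1 was at 0.674 CPM in erythroid-like cells, 2.76 CPM in cluster 10 and 7.06 CPM in basophil/mast-like cells, the last from 5 UMIs. In vehicle, 3 of the 5 Asns UMIs and 3 of the 7 Chac1 UMIs came from the 32 cells of cluster 10, and megakaryocyte-like cells held 0 UMIs of either gene among 1110 cells, which allows up to 0.182 CPM.

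The treatments were also compared within the same cell group. Within erythroid-like cells Xbp1 and Pdia4 stood closer to their vehicle levels than in the whole libraries, whereas the ratio of Hspa5 was the same 0.85. Xbp1 was at 54.2 CPM in vehicle and 48.6 CPM in AG-120 (ratio 0.90, interval 0.70 to 1.17), and Pdia4 at 51.5 and 49.9 CPM (ratio 0.97, interval 0.75 to 1.27). Hspa5 was at 304 and 259 CPM (ratio 0.85, interval 0.77 to 0.95), and Herpud1 at 39.3 and 47.8 CPM (ratio 1.22, interval 0.91 to 1.67). Herpud1 was called higher and 0 of the 4 lower, beside 25.4% and 24.6% of genes, and the median log2 ratio was -0.10. That median was -0.29 with thinned cells and -0.27 with cells gated by markers. Of the ATF4 arm, Atf4 was at 97.0 and 84.7 CPM and Ddit3 at 20.97 and 19.01 CPM, with both intervals of the ratio including 1. Vehicle erythroid-like cells held 1 UMI of Asns (0.874 CPM) and 3 of Trib3 (2.62 CPM), and the ratios within these cells were 1.504 (interval 0.26 to 59.9) and 0.61 (interval 0.20 to 2.97), too wide to set against those of the whole libraries. Chac1 had 0 UMIs in vehicle (which allows up to 2.62 CPM) and 59 in AG-120 (0.674 CPM), and Sesn2 had a ratio of 0.71 (interval 0.36 to 1.65). The vehicle cells were few and deep, with a median of 32123 UMIs, and cluster 5 held 10 of the 35 vehicle cells and cluster 2 held 803 of the 3282 AG-120 cells. Their erythroid markers summed to 3992 CPM, beside 3213 CPM in AG-120. The 17 kept AG-120 cells with a shared barcode were all erythroid-like, and without them Hspa5 stayed at 259 CPM and Xbp1 at 48.6 CPM.

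Within megakaryocyte-like cells Ddit3 and Atf4 were higher in AG-120. Ddit3 was at 23.2 CPM in vehicle and 57.6 CPM in AG-120 (ratio 2.48, interval 1.70 to 3.51) and Atf4 at 79.8 and 120 CPM (ratio 1.505, interval 1.17 to 1.91). Trib3 had 3 UMIs in 1110 vehicle cells and 19 UMIs in 40 AG-120 cells (ratio 172, interval 50.5 to 906). These 19 UMIs came from 5 cells, with up to 6 in a cell, and the interval leaves out spread among cells. Sesn2 was at 8.19 and 13.2 CPM, the latter from 8 UMIs (ratio 1.61, interval 0.68 to 3.26). These 3 measured genes, Ddit3, Atf4 and Sesn2, were all past the 1.2-fold call, beside 24.6% of genes called higher and 38.4% lower. The ER arm was mixed, with Xbp1 at 117 and 161 CPM (ratio 1.38, interval 1.12 to 1.70), Hspa5 at 358 and 457 CPM (ratio 1.28, interval 1.13 to 1.44), Pdia4 at 105 and 79.0 CPM (ratio 0.75, interval 0.55 to 1.00) and Herpud1 within 1.2-fold. The vehicle cells lay in cluster 3 (613) and cluster 7 (497), and 33 of the 40 AG-120 cells in cluster 3. Within cluster 3, Hspa5 was at 412 CPM in vehicle and 480 CPM in AG-120, under the 1.2-fold call, and Xbp1 at 117 and 168 CPM. Erythroid markers summed to 619 CPM in the vehicle cells and 1545 CPM in the AG-120 cells of this group, with 2 of 14 markers at 0 in each, and megakaryocyte markers to 2337 and 5891 CPM. The part of this difference in the gene levels was not tested.

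In cluster 10, Hspa5 was at 384 CPM in vehicle and 668 CPM in AG-120 and Pdia4 at 66.2 and 162 CPM. There 67.5% of genes were called higher in AG-120 and 15.6% lower, and neutrophil markers summed to 220068 CPM in vehicle and 6839 CPM in AG-120. In cluster 11, all 4 ER genes were called higher, beside 26.8% of genes called higher and 42.6% lower, with Hspa5 at 577 and 854 CPM and Herpud1 at 70.5 and 155 CPM. Basophil, mast cell and eosinophil markers summed to 547 CPM in vehicle and 28897 CPM in AG-120 there. The part of these differences in makeup was not tested.

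Among the 6 erythroid-like clusters of AG-120, 3 of the 4 ER genes were lowest in the cluster with the highest erythroid markers. Cluster 6 had the highest erythroid marker sum, 4951 CPM, and the lowest levels of Xbp1 (35.6 CPM), Pdia4 (44.2 CPM) and Herpud1 (40.3 CPM). Its Xbp1 interval (32.8 to 38.5 CPM) overlapped that of cluster 12 (37.6 to 47.5 CPM). For Pdia4 and Herpud1 its intervals overlapped those of clusters 4 and 12. Overlap alone does not settle whether levels differ, and ratios between these clusters were not computed. Cluster 5, with the lowest marker sum of 2219 CPM, had 57.6, 52.9 and 54.1 CPM of the same genes. Hspa5 did not follow, with 268 CPM in cluster 6, 271 CPM in cluster 5 and its lowest value, 217 CPM, in cluster 8. Asns was highest in cluster 6, with 4.20 CPM in cluster 6 (73 UMIs, interval 3.30 to 5.29) and 0.26 to 1.15 CPM in the other 5 clusters. Sesn2 was also highest there, at 7.89 CPM (interval 6.62 to 9.33), beside 3.13 to 6.32 CPM in the others. The Sesn2 interval of cluster 12 (4.58 to 8.52 CPM) overlapped it. Trib3 at 1.67 CPM and Chac1 at 0.749 CPM in cluster 6 lay within the range of the others. These clusters share a library, and the values are a description.

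**Figure D4:**
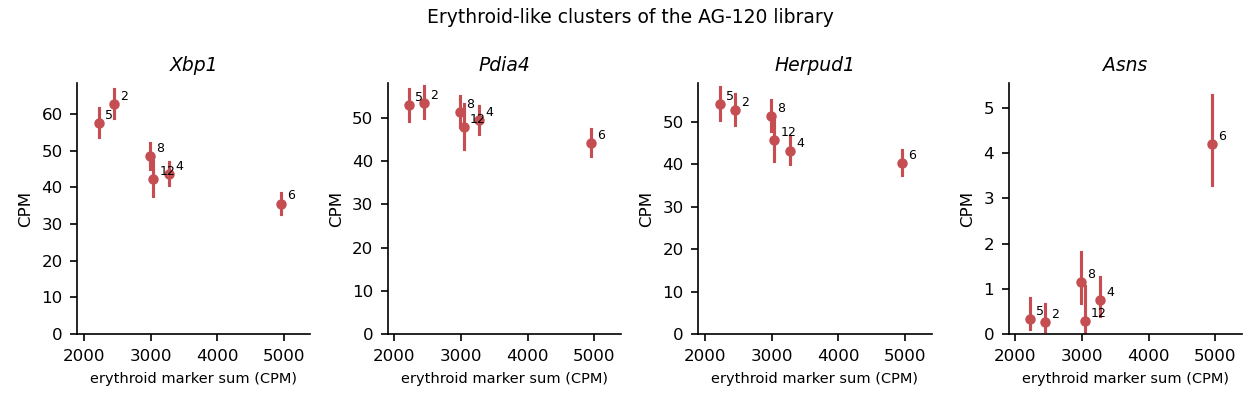
Level in CPM of 4 genes in the 6 erythroid-like clusters of AG-120 (numbers name the clusters) against the summed CPM of 14 erythroid markers; bars are 95% counting intervals. Xbp1, Pdia4 and Herpud1 are lowest and Asns is highest in cluster 6, which has the highest marker sum.

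In AG-120 the rare ATF4 targets occurred together in few cells. Of 61 cells with a Chac1 UMI, 27 also held a Trib3 UMI, beside 96 Trib3 cells among all 3756, and 6 of the 61 Asns cells held a Trib3 UMI. Cells with UMIs of at least 3 of Ddit3, Asns, Trib3 and Chac1, a rule set after their values were seen, numbered 23 of 3756 in AG-120 (0.612%) and 0 of 3914 in vehicle, which allows a share of up to 0.0766%. Exactly 2 of the genes were seen in 67 AG-120 and 4 vehicle cells. At equal depth, cells with at least 3 of the genes numbered 2 in AG-120 and 0 in vehicle. Those with at least 2 numbered 21 of 3625 and 0 of 3553, which allows up to 0.0844%. These limits are on cells with such UMIs at the depth of the vehicle library, not on cells that express the genes. A cell with at least 3 of the genes needs at least 2 of Asns, Trib3 and Chac1. In vehicle these were seen in only 5, 9 and 6 cells, so the 0 there adds no difference beyond their library ratios. The number of such cells for genes seen independently was not computed. Of the 23 cells, 21 were erythroid-like, 1 lay in cluster 10 and 1 was megakaryocyte-like. Their median depth was 27891 UMIs, beside 26887 in erythroid-like cells, and their median mitochondrial share was 2.40%, beside 2.52% in the library.

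In genes not used to pick them, these 23 cells were compared with the 3261 other erythroid-like cells of AG-120. Atf4 was at 252 CPM beside 83.4 CPM, 3.02-fold higher (interval 2.59 to 3.52). Sesn2 was at 30.6 CPM beside 4.78 CPM, 6.41-fold higher (interval 3.93 to 9.93), from 21 UMIs. Herpud1 was at 153 CPM beside 47.0 CPM, 3.26-fold higher (interval 2.66 to 3.95), and Xbp1 was 1.78-fold higher (interval 1.35 to 2.30). The 2 cells of other groups have higher Xbp1 as groups, and with the 21 erythroid-like cells alone (a comparison added after the data were seen) the folds were 3.03 for Atf4, 6.17 for Sesn2, 3.20 for Herpud1 and 1.48 for Xbp1 (interval 1.08 to 1.97). Hspa5 and Pdia4 stood near the other cells, at 235 CPM beside 260 CPM (ratio 0.90, interval 0.77 to 1.06) and 48.1 CPM beside 49.9 CPM (ratio 0.96, interval 0.66 to 1.36). The ER chaperone arm was thus divided in these cells, with Herpud1 and Xbp1 higher and the lumenal proteins Hspa5 and Pdia4 not apart beyond counting error. The summed ATF4 target list was 1.90-fold higher (interval 1.83 to 1.96) and its tRNA synthetases 1.64-fold (interval 1.54 to 1.75), while the ER folding list was at 0.92 (interval 0.89 to 0.96) and the ER degradation list at 1.00 (interval 0.94 to 1.06) of the other cells. The cells come from 1 library, so these folds have no replicate.

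**Figure D5:**
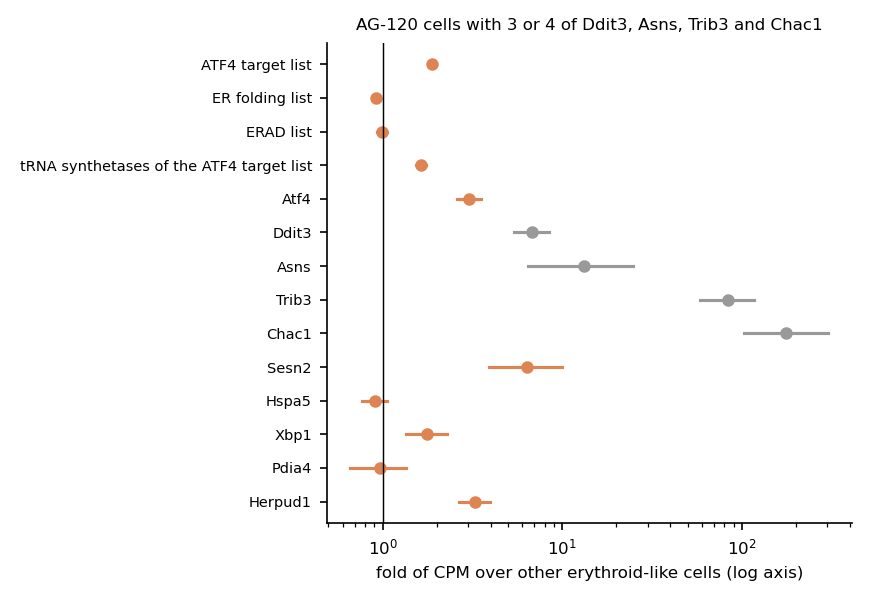
Fold of CPM in the 23 AG-120 cells with UMIs of at least 3 of Ddit3, Asns, Trib3 and Chac1 over the 3261 other erythroid-like cells of AG-120, on a log axis; bars are 95% counting intervals, and grey points are the genes that picked the cells. Atf4, Sesn2 and Herpud1 lie above 3, and Hspa5 and Pdia4 near 1.

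Over the 17 groups of at least 20 cells made by library and cluster, the genes whose log2(CPM + 1) was most like that of Hspa5 were other ER folding genes. Pdia3 (Pearson r = 0.97), Manf (0.95), P4hb (0.94), Hsp90b1 (0.94) and Dnajc3 (0.93) led among all genes searched. The other ER arm members followed Hspa5 less closely, with r of 0.83 for Xbp1, 0.80 for Herpud1 and 0.80 for Pdia4. Values of the ATF4 arm members were lower, from -0.11 for Ddit3 to 0.43 for Atf4 and 0.45 for Asns. The genes most like Asns were Scarb2 (0.89), Lamp1 (0.83), Daglb (0.83), Slc35f6 (0.82) and Gatm (0.80). Among the members, r with Asns ranged from -0.24 for Sesn2 to 0.53 for Herpud1 and 0.63 for Atf4. The highest of the 17 Asns values, 25.8 CPM in cluster 11 of AG-120, comes from 10 UMIs. Groups of the same library share their depth, and r is given as a description.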

How the data were processed

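Single-cell RNA was measured in 1 vehicle and 1 AG-120 library. The tools named per the submitters' processing notes are Cell Ranger 3.1.0 and Seurat 4.0.4 and the build mm10/GRCm38, while the matrix headers name software version 3.0.2. The labels' protocol names a 5′ kit, the design text a 3′ platform. The deposited values are raw UMI counts per gene and barcode, whole numbers that the authors did not normalize, per the file headers.

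Barcodes under 500 genes or over 10% mitochondrial UMIs were dropped. No doublet caller was run and doublets stayed in. UMIs were summed per library or cell group and given as CPM with exact Poisson intervals, and ratios with exact binomial intervals. For shares of cells, each cell was thinned to 6500 UMIs, with exact binomial intervals. Counts of 0 are given with the limit of 3 counts. Clustering used scanpy 1.11.5 and leidenalg 0.10.2 (2000 variable genes, 30 components, 15 neighbours, resolution 1), without the 10 members, pathway lists, cell cycle, histone, mitochondrial, ribosomal and sex-linked genes. A cluster was named where at least 3 markers and 50% of a list were on and at least 2 led it, thresholds set after the data were seen, so names rebuilt here may differ from the authors' own. Counting intervals were checked on libraries simulated with counting error alone, the model the intervals assume. They held the true ratio for 94.9% of 9219 unchanged genes, and 48% of genes changed by 1.2-fold and 100% of those changed by 1.5-fold were called. The check covers the calculation only, not spread among cells or between libraries. The members and lists were chosen with earlier results of these data known. Named were all members, the 3 highest and 3 lowest genes of each list, the eIF2 kinases with Ern1 and Atf6, and the 5 genes most like Asns and Hspa5. A result that this rule names is not reported here. Mars1 is listed as Mars and Dele1 as 0610009O20Rik. Gene positions come from GENCODE mouse release 21 (GRCm38). The alternatives tried were other filters, scalings, weights, thresholds and clusterings.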

Additional observations from a re-analysis of the deposited data

How the results depend on the processing

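No paired analysis was possible because each treatment had 1 library. The libraries differ in depth and in cell groups, and the largest changes came from weighting AG-120 cells to the vehicle makeup of cell groups, where 63.0% of the weight fell on 22 cells. Under it the median log2 ratio was 2.80 in the ATF4 arm and reversed to 0.22 in the ER chaperone arm. Sesn2 (0.031), Hspa5 (0.32), Xbp1 (0.43) and Herpud1 (0.13) changed sign. Of all 10 members (rare ones included), 7 were called higher and 0 lower, in place of 3 and 4. The ER folding list had 13 genes higher and 3 lower. Shares of all genes called under this weighting were not computed, so these counts have no background. With the median gene set to 0, the ER arm median was -0.44, 5 of the 10 members were called higher and 5 ER folding genes lower. With each cell counted equally the ER arm median was -0.46, and without cluster 10 (added after the data were seen) it was -0.71. At a 1.5-fold threshold 12 ATF4 targets were higher, and 1 ER folding gene was higher and 4 lower. With thinned cells 5 ER folding genes were lower. Of the main results, 97 alternative values stayed within their limits, 14 moved and 1 reversed. Of single genes and other lists, 110 stayed, 31 moved and 3 reversed. A change of sign counts as reversed only where the main value passed 1.2-fold, so that of Hspa5 counts as moved. The ER arm median of megakaryocyte-like over erythroid-like cells of the same library stayed within its limits at other resolutions, with 3000 variable genes, with cells gated by markers and with thinned cells. The ER arm medians of AG-120 over vehicle within erythroid-like and within megakaryocyte-like cells also stayed within theirs. Within megakaryocyte-like cells it was -0.02 at resolution 1.5 in place of 0.08, a change of sign. Other comparisons of cell groups were not recomputed. Asns, Trib3 and Chac1 rest on at most 10 vehicle UMIs each, so their ratios are known only within their intervals.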

Other observations

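The 12 listed ATF4 targets under 500 UMIs were not counted above. Slc6a9, a glycine transporter used by red cell precursors for heme synthesis, had 7 UMIs in vehicle and 108 in AG-120, a 9.03-fold ratio of CPM (interval 4.24 to 23.0). Nupr1, a small stress-induced chromatin protein, had 50 and 311 UMIs, a 3.64-fold ratio (interval 2.69 to 5.01). Against these, Jdp2, a bZIP repressor, had 111 and 27 UMIs, 7.02-fold lower in CPM, and the lipoprotein receptor Vldlr 17 and 4. Atf3, Slc7a11 and Gpt2 stood at 1.67, 1.56 and 1.89 times their vehicle CPM. AG-120 held more UMIs in all, which the CPM take into account.

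Within a cell group, members of an arm varied together only weakly from cell to cell. At equal depth the median Pearson r over the 6 pairs of ER genes was 0.03 in AG-120 erythroid-like cells (3224 cells), 0.14 in vehicle megakaryocyte-like cells (1052 cells) and 0.19 in vehicle cluster 11 (255 cells). For pairs with 1 gene of each arm the medians were 0.00, 0.02 and 0.04. In counts this sparse such weak values are a description only. Asns counts per cell had a variance of 1.93 times the mean in AG-120 at equal depth, and up to 7 UMIs were counted in a cell before thinning.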
